A study of Mus musculus with 18 samples.

Results

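The genes described here code for the proteins that build the mitotic spindle, hold chromosomes to it and split the cell at cytokinesis. They are 34 gene symbols, chosen by name from a list of mitotic kinases, kinetochore proteins, spindle motors, central spindle proteins and mitotic ubiquitin factors, out of 23052 symbols in each of 2 count tables. All 34 were found in both tables and all 34 passed the filter on low counts in both. In cycling cells most of these genes are transcribed late in the cycle, as DNA replication ends, and their products are removed after division. Their RNA is therefore commonly read as a sign of dividing cells. Bone marrow-derived macrophages proliferate in response to the growth factor CSF1, which L929 cells secrete into their medium, and mature macrophages divide less than their precursors.

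RNA sequencing counts came from 18 libraries of C57BL6/J wild type mouse bone marrow-derived macrophages. Bone marrow cells had differentiated over 7 days in a mix of 80% serum-containing DMEM and 20% medium conditioned by L929 cells. The tolerant set held 12 libraries of endotoxin-tolerant macrophages, which are cells that respond less to a repeated bacterial endotoxin. They were kept without glutamine but with α-ketoglutarate (AKG), without glutamine, or with glutamine, with 4 libraries each. Glutamine is a nutrient that cells convert to AKG, a citric acid cycle intermediate. The series set out to find transcripts affected by glutamine metabolism in tolerant macrophages. The stimulation set held 6 libraries of macrophages given LPS for 6 h, given IL-4 for 6 h, or left as the control, with 2 libraries each. LPS is bacterial endotoxin and IL-4 is a cytokine that drives alternative activation. The labels do not give the tolerance protocol, the doses, the age of the mice or whether libraries came from separate mice, so p-values measure only the spread between these libraries, which may be technical.

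Each tolerant library held between 28302158 and 37834680 counts, and each library of the stimulation set between 34227368 and 39760356. Macrophage identity genes such as Adgre1 and Csf1r summed to between 28940 and 49210 CPM (counts scaled to sequencing depth) in every library, so the labelled cell type is matched by its markers. Markers of stromal fibroblasts were also present, and are given below beside the results for the 34 genes. Neutrophil, dendritic cell, mast cell, lymphocyte and erythroid markers each summed to at most 19.3 CPM in any library. In the tolerant set, replicates 3 and 4 stood apart from replicates 1 and 2 in all 3 groups, with 56.2% of all genes tested differing between them, and the labels do not say what the replicate numbers mark. Results are therefore also given within each of those pairs. The 34 genes took few counts: their summed level lay between 86.3 CPM and 406 CPM in any library. Per kilobase of transcript, the highest levels with glutamine were those of Cenpa (8.21 CPM per kb), Top2a (6.77) and Cdca8 (5.73), and the lowest those of Kif18b (0.653) and Cenpf (0.501). In untreated cells, Cenpa was also first (13.5 CPM per kb) and Cenpf last (0.134).

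The promoters of these genes are known for a pair of motifs. The cell cycle genes homology region (CHR), spelled TTTGAA or TTTAAA, is bound by the MuvB core of the DREAM and MYB-MuvB complexes, and the CCAAT box is bound by NF-Y. RefSeq promoters on GRCm38.p6, from 250 bases before to 50 after a gene's start, were at hand for 30 of the 34 genes (32 promoters). Both motifs were searched on both strands, a match of the palindromic TTTAAA counted once, and matches of the 2 motifs may share bases. A CHR spelling was found in 90.6% of these 32 promoters and in 27.6% of all 32851 promoters of the table. A CCAAT box was found in 90.6% and in 37.4%, both motifs in 84.4% and in 10.7%, and 2 or more CCAAT boxes in 65.6% and in 11.7%. These shares describe letters in a window and not binding. Shown are promoters of the 3 genes with the smallest p for glutamine withdrawal, among those whose promoter was at hand and held a motif. For contrast, that of Ccnf, which had the largest p, is shown too. Capitals mark the CHR spelling and the CCAAT box on either strand (ATTGG when the box lies on the other strand), and each sequence runs 5′ to 3′ on the gene's strand. Kif18b lies on the minus strand (chr11:102925075-102925374), Cdca3 on the plus strand (chr6:124829926-124830225), Nek2 on the plus strand (chr1:191821223-191821522) and Ccnf on the minus strand (chr17:24251360-24251659).
Kif18b: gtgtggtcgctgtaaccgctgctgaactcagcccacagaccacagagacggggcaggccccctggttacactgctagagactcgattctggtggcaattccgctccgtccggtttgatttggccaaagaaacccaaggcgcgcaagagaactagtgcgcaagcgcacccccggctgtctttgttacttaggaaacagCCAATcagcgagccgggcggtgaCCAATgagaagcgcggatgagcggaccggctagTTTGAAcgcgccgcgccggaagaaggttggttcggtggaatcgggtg
Cdca3: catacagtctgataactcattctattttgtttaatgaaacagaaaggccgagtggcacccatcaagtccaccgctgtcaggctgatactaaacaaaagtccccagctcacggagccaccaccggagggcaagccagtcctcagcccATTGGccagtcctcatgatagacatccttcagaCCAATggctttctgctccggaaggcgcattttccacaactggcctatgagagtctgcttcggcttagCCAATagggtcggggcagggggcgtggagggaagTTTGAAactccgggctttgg
Nek2: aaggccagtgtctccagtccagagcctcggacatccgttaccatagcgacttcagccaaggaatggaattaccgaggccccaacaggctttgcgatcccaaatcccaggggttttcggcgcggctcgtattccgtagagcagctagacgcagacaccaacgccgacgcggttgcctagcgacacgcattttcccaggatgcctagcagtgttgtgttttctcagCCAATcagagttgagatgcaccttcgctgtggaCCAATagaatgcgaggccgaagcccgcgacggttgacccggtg
Ccnf: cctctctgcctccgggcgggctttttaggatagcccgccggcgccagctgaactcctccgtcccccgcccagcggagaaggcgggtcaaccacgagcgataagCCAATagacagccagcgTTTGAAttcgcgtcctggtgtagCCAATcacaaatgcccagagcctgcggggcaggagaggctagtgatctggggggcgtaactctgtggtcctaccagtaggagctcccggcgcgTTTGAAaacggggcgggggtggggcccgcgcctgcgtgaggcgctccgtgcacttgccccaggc
Kif18b and Cdca3 each carry a CHR spelling just past the start site (offsets 3 and 30), with CCAAT boxes before it. Nek2 has 2 CCAAT boxes and no CHR spelling, as also Bub1 and Nusap1 have none. The Ccnf promoter holds both motifs in 2 copies each.

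Without glutamine, libraries of tolerant macrophages held less RNA of nearly the whole mitotic programme than with glutamine. Of the 34 genes, 27 fell and none rose at an adjusted p under 0.05, where 2.47% of all genes tested were called lower and 2.31% higher. The median log2 fold change was -1.60 over the 34 genes and -0.01 over all 12492 genes tested. In 31 of the 34 genes the 4 libraries without glutamine all lay below the 4 with glutamine, which 5.78% of all genes tested did. The summed level was 122, 121, 86.3 and 101 CPM in replicates 1 to 4 without glutamine and 215, 200, 352 and 406 CPM in replicates 1 to 4 with glutamine. Fewer dividing cells, less of these RNAs in each dividing cell and a change in the mix of cell types cannot be told apart in bulk RNA. Stromal fibroblast markers, given below, fell in the same libraries. With the replicate number as a block in the fit, 32 of the 34 genes fell (13.1% of all genes tested). Without replicate 2 of the libraries without glutamine, or with only the 2 groups in the fit, the count was 15.

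**Figure D1:**
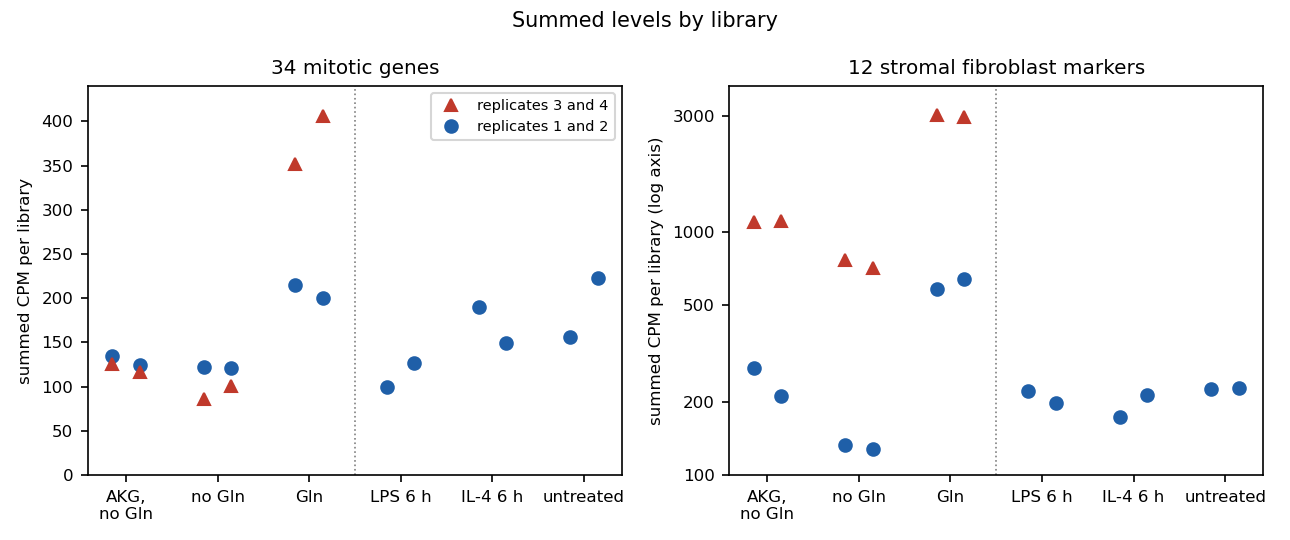
Summed CPM of the 34 mitotic genes (left) and of 12 stromal fibroblast markers (right, log axis) in each library, with red triangles for replicates 3 and 4 and blue circles for replicates 1 and 2. The mitotic sum with glutamine lay at 352 and 406 CPM in replicates 3 and 4 and at 215 and 200 CPM in replicates 1 and 2, above every library without glutamine.

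All 8 genes of the kinases, cyclins and entry factors fell without glutamine. Plk1 (chr7:122159439-122169873, GRCm38), a kinase of centrosome maturation and spindle assembly, had 0.402, 0.569, 0.621 and 0.444 CPM without glutamine and 2.27, 1.75, 6.61 and 6.63 CPM with glutamine. Its log2 fold change was -3.07 ± 0.48 (SE, n = 4 each; adjusted p = 0.00756). Ccnb2 (chr9:70407692-70421547), a cyclin partner of Cdk1, had 0.268, 0.210, 0.588 and 0.718 CPM without glutamine and 1.68, 1.72, 5.06 and 5.54 CPM with glutamine (log2 fold change -2.97 ± 0.53, adjusted p = 0.0118). In neither gene did the groups overlap, and replicates 3 and 4 with glutamine were the highest libraries. Ccna2, the cyclin of S phase and mitotic entry, fell by 2.88 on the log2 scale, and Ccnb1, the other B-type cyclin here, by 1.40. Cdk1 (chr10:69335146-69352938), the kinase that starts mitosis, fell less. It had 8.6, 8.0, 9.67 and 8.2 CPM without glutamine and 13.9, 12.8, 21.2 and 22.3 CPM with glutamine (log2 fold change -1.02 ± 0.18, adjusted p = 0.00993). Aurka, the spindle pole kinase, fell by 1.12. Nek2, which separates centrosomes, fell by 1.55 and Cdca3, an adaptor that promotes mitotic entry, by 1.69.

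Of the 9 genes of kinetochore, passenger complex and checkpoint, 5 fell. Cenpf (chr1:189640606-189688086), a large kinetochore-associated protein, had the largest change of all 34. It had 0.234, 0.329, 0.0653 and 0.615 CPM without glutamine and 3.24, 2.84, 4.78 and 11.4 CPM with glutamine, with no overlap (log2 fold change -4.15 ± 0.65, adjusted p = 0.0076). The levels without glutamine rest on 7, 11, 2 and 18 counts. Cenpf also has the longest transcript of the 34 (11130 nt), and differences between libraries by transcript length are given below. Birc5, the survivin subunit of the passenger complex, fell by 2.5, Ttk, the kinase that starts the spindle checkpoint, by 1.95, Cenpe, the kinetochore motor, by 1.47, and Bub1b, which codes for the checkpoint protein BubR1, by 0.59. Aurkb, Bub1, Cdca8 and Cenpa did not pass. Aurkb (chr11:69045647-69051664), the kinase of the passenger complex, had 6.63, 6.56, 2.45 and 2.12 CPM without glutamine and 11.4, 12, 7.85 and 7.04 CPM with glutamine. No library without glutamine reached the lowest with glutamine, the adjusted p was 0.254 (log2 fold change -1.11 ± 0.48), and replicates 3 and 4 lay below replicates 1 and 2 in both groups. Cenpa, the centromeric histone, gave -1.02 ± 0.34 with an adjusted p of 0.124 and showed the same order of replicates. With the replicate block, Aurkb (adjusted p = 0.00181), Cenpa (6.53e-04), Bub1 (0.032) and Cdca8 (0.0249) were called lower as well. Cdca8, the borealin subunit of the passenger complex, moved little on any reading, with -0.28 ± 0.15.

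The 7 spindle motors and microtubule binders all fell, with a median of -2.87 on the log2 scale. Kif18b (chr11:102905529-102925124), a motor at microtubule plus ends, had the smallest p of the 34. It had 0.368, 0.270, 0.196 and 0.342 CPM without glutamine and 1.46, 1.58, 2.98 and 2.66 CPM with glutamine, and the groups were far apart (log2 fold change -2.87 ± 0.36, adjusted p = 0.0037). Kif4, the chromokinesin, fell by 3.19, Kif2c, a microtubule depolymerase, by 3.02, and Hmmr, a spindle assembly factor, by 2.90. Kif11, the motor that pushes the poles apart, fell by 1.92, Nusap1, a microtubule bundler near chromosomes, by 1.91, and Tpx2, the activator of Aurora A on the spindle, by 1.60.

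In the central spindle group, Kif20a (-1.61), Racgap1 (-1.10), Prc1 (-2.19) and Ect2 (-1.51) fell without glutamine. Prc1 bundles the midzone microtubules, Racgap1 and Kif23 together form centralspindlin, Ect2 activates RhoA at the cleavage site and Kif20a carries the passenger complex to the midzone. Kif23 did not pass, with -1.08 ± 0.36 and an adjusted p of 0.124. Its libraries overlapped, with 3.04, 3.23, 1.44 and 2.19 CPM without glutamine and 4.08, 2.73, 6.83 and 7.38 CPM with glutamine. Top2a (chr11:98992943-99024189), which untangles sister chromatids, had 11.3, 11, 5.0 and 9.09 CPM without glutamine and 24.1, 21.1, 45.0 and 51.2 CPM with glutamine (log2 fold change -1.96 ± 0.31, adjusted p = 0.00821). Mki67, the Ki-67 antigen on mitotic chromosomes, did not pass (-1.17 ± 0.42, adjusted p = 0.152) and passed with the replicate block (adjusted p = 0.0477). Cdc20, the activator of the anaphase-promoting complex, fell by 1.58 and Ube2c, its ubiquitin-conjugating enzyme, by 3.02. Ccnf (chr17:24222198-24251484), an F-box protein of an SCF ubiquitin ligase, moved least. It had 4.38, 4.19, 4.08 and 3.42 CPM without glutamine and 2.74, 3.79, 6.08 and 5.70 CPM with glutamine, and the groups overlapped (log2 fold change -0.19 ± 0.23, adjusted p = 0.765).

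**Figure D2:**
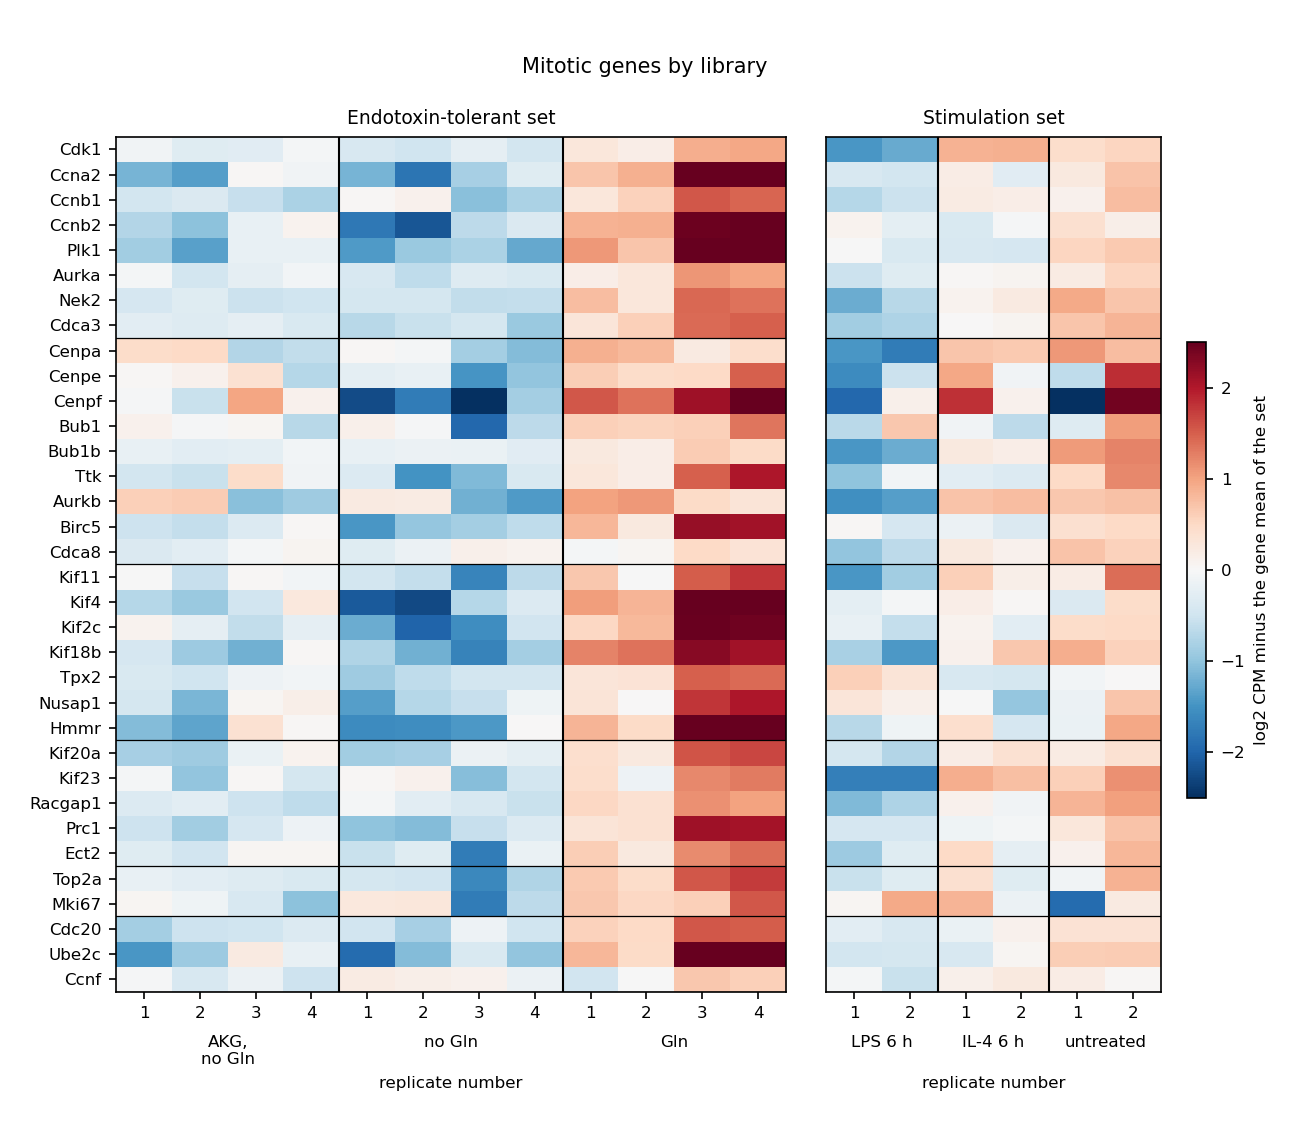
Log2 CPM of each of the 34 genes in each library, minus the gene's mean within its set, with colours limited to 2.5 above or below it. Genes run down the page by role and libraries run across by group and replicate number, and the darkest red lies in replicates 3 and 4 with glutamine and in untreated replicate 2 for Cenpf.

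By direction, the fall without glutamine was present in both pairs of replicates for 33 of the 34 genes. Ccnf was the exception, with an estimate of 0.39 in replicates 1 and 2. The estimate was lower in replicates 3 and 4 than in replicates 1 and 2 for each of the 34 genes. Within replicates 3 and 4, 33 of the 34 genes were called lower (12.6% of all genes tested) with a median log2 fold change of -2.25. Within replicates 1 and 2, 24 were called lower (9.60%) with a median of -1.03. Only Cdca8 missed the threshold in replicates 3 and 4 (-0.32, adjusted p = 0.0545). In replicates 1 and 2, the 10 that missed it were Ccnb1, Cenpe, Bub1, Ttk, Cdca8, Kif11, Kif23, Ect2, Mki67 and Ccnf. Across the 34 genes the fold changes of the 2 pairs had a Pearson r of 0.84 and a Spearman rho of 0.77, given as a description, since the pairs share the gene set and the fit but no library.

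The difference between the pairs was tested as an interaction. It passed for 6 of the 34 genes, all with a larger fall in replicates 3 and 4, where 1.75% of all genes tested were called in that direction. The median of this difference was -1.07 over the 34 genes and -0.04 over all genes tested. Ccnb1 (chr13:100778650-100786570) had the largest. Its level was 1.11 and 1.33 CPM without glutamine and 6.69 and 6.29 CPM with glutamine in replicates 3 and 4, and 2.34 and 2.49 CPM without glutamine and 2.80 and 3.44 CPM with glutamine in replicates 1 and 2. The difference of the fold changes was -2.04 (adjusted p = 0.00441). The others were Top2a (-1.76), Prc1 (-1.15), Racgap1 (-0.95), Aurkb (-0.87) and Tpx2 (-0.84). The count of 6 ranged from 1 to 16 as single libraries were left out, and it was 1 when any of the 4 glutamine libraries was left out or without replicate 2 of those lacking glutamine. It was 2 without replicate 1 and 16 without replicate 4 of the libraries lacking glutamine.

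**Figure D3:**
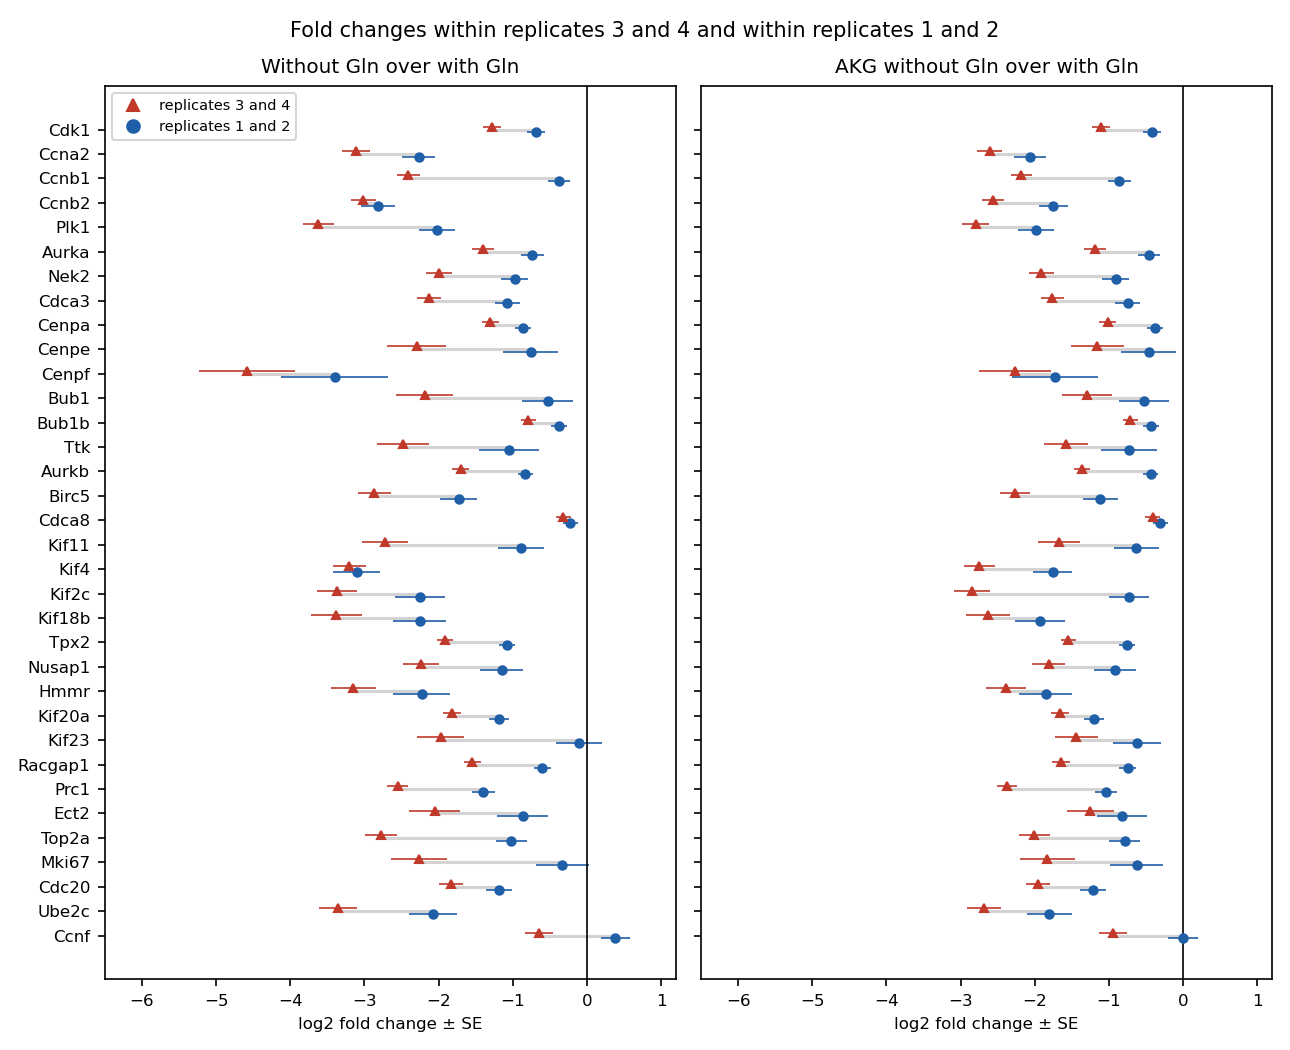
Log2 fold change ± SE of each gene without glutamine over with glutamine (left) and with AKG without glutamine over with glutamine (right), fitted within replicates 3 and 4 (red triangles) and within replicates 1 and 2 (blue circles), 2 libraries per group in each. In the left panel the red triangle lies further left than the blue circle for each gene, with the widest gap in Ccnb1.

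Over all 3 groups together, replicates 3 and 4 had more of 18 genes and less of 2 than replicates 1 and 2, where 29.6% of all genes tested were called higher and 26.6% lower. Hmmr gave 1.59, Ube2c 1.57, Kif4 1.46, Ccna2 1.44 and Ccnb2 1.38 on the log2 scale. Aurkb (-1.21) and Cenpa (-0.85) went the other way. In Aurkb this held in each group, with 2.73 and 3.06 CPM in replicates 3 and 4 with AKG against 8.58 and 8.75 CPM in replicates 1 and 2. The summed level of the mitotic genes was higher in replicates 3 and 4 only with glutamine (352 and 406 CPM, against 215 and 200 CPM). Without glutamine it was 86.3 and 101 CPM in replicates 3 and 4, against 122 and 121 CPM in replicates 1 and 2. With AKG it was 126 and 117 CPM, against 134.7 and 124.5 CPM. Of the genes called higher, Hmmr was so in each group and Kif2c was not (with AKG, means of 0.720 CPM against 0.917 CPM).

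Stromal fibroblast markers also fell without glutamine. Between the replicate pairs they moved with the mitotic sum only in the glutamine group, and the other way in the other groups. Summed over 12 genes such as Col1a1 and Col6a3, they gave 771 and 712 CPM without glutamine and 3047 and 2982 CPM with glutamine in replicates 3 and 4. In replicates 1 and 2 they gave 133 and 128 CPM without glutamine and 586 and 640 CPM with glutamine. With AKG they gave 1101 and 1112 CPM in replicates 3 and 4 and 276 and 211 CPM in replicates 1 and 2. Of the 10 such markers tested, 6 fell without glutamine (median -3.10), and all 10 did with the replicate block. All 10 were higher in replicates 3 and 4 than in replicates 1 and 2 (median 2.08). With the block, 8 of the 10 were higher with AKG than without AKG or glutamine (8.50% of all genes tested). Their median difference of the glutamine effect between the pairs was -0.31, against -1.07 over the 34 genes. The part of these markers in the fall of the mitotic genes was not tested. Of the 11 macrophage identity genes 0 were called without glutamine by edgeR, and their median log2 fold change was 0.01. With the replicate block 2 of them were called lower, a share near that of all genes tested (13.1%). Within replicates 1 and 2, 1 was called higher and 2 lower, and within replicates 3 and 4, 0 were called.

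With AKG in place of glutamine, no mitotic gene passed the test against the libraries without either. The summed level was 135, 125, 126 and 117 CPM in replicates 1 to 4 with AKG and 122, 121, 86.3 and 101 CPM in replicates 1 to 4 without AKG or glutamine. By edgeR's quasi-likelihood test 0 of the 34 genes passed, where 1.54% of all genes tested were called in either direction. An unadjusted p under 0.05 was found for 1 of the 34 and for 1632 of all 12492 genes tested. Limma-voom called 0 and DESeq2 called 1. The median log2 fold change was 0.37 over the 34 genes, against 0.01 over all genes tested, and 27 of the 34 were positive. Cenpf had 1.08, 0.755, 2.19 and 1.19 CPM with AKG and 0.234, 0.329, 0.0653 and 0.615 CPM without it. Its groups did not overlap, its log2 fold change was 2.06 ± 0.63 and its adjusted p was 0.149 (0.0269 with the replicate block, which called only this gene of the 34 higher, and 8.50% of all genes tested). In 4 of the 34 genes all AKG libraries lay above those without it (4.02% of all genes tested did), namely Cenpf, Cdca3, Birc5 and Top2a. Top2a had 13.4, 12.8, 12.2 and 11.7 CPM with AKG and 11.3, 11, 5.0 and 9.09 CPM without it (0.46 ± 0.31, adjusted p = 0.612). Within replicates 1 and 2, Kif2c (1.52), Cenpa (0.48) and Aurkb (0.39) were called higher with AKG, where 6.84% of all genes tested were. Within replicates 3 and 4, 0 of the 34 were called by edgeR, where 5.76% of all genes tested were called higher. There, 11 of the 34 and 3067 of all 12492 genes tested had an unadjusted p under 0.05. The difference of the AKG fold changes between the pairs was called for 0 of the 34 by edgeR, DESeq2 or limma-voom (0.0400% of all genes tested by edgeR). For this difference, 1 of the 34 and 943 of all 12492 genes tested had an unadjusted p under 0.05.

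Set against glutamine, the AKG libraries had lower estimates for all 34 genes. The median log2 fold change was -1.41, against 0.00 over all genes tested. By edgeR's quasi-likelihood test 0 of the 34 passed, as did 0% of all genes tested. An unadjusted p under 0.05 was found for 32 of the 34 and for 919 of all 12492 genes tested. DESeq2 called 23 lower and limma-voom 0. With the replicate block 27 of the 34 were called lower (5.43% of all genes tested). In 26 of the 34 genes the AKG libraries all lay below the glutamine libraries (3.09% of all genes tested did). Plk1 had 0.586, 0.423, 0.947 and 0.950 CPM with AKG and 2.27, 1.75, 6.61 and 6.63 CPM with glutamine. Its groups did not overlap, with a log2 fold change of -2.56 ± 0.46 and an adjusted p of 0.134 (0.00109 with the block). Racgap1 had 5.18, 5.52, 4.63 and 4.22 CPM with AKG and 9.40, 8.59, 14.5 and 13.2 CPM with glutamine, and its adjusted p of 0.0749 was, with that of Kif18b, the smallest of the 34 (-1.23 ± 0.18). Within replicates 3 and 4, 33 of the 34 were called lower (7.27% of all genes tested), and within replicates 1 and 2, 18 were (3.97%). Cenpe, Bub1, Kif11, Kif23, Ect2, Mki67 and Ccnf were the 7 not called with the block. The 2 comparisons with the glutamine libraries share those libraries.

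LPS for 6 h lowered most of these genes in cells not made tolerant, with a different order of sizes. Of the 34 genes, 22 fell and 1 rose against the untreated cells, where 29.4% of all genes tested were called lower and 22.8% higher. The median log2 fold change was -1.0 over the 34 genes and -0.10 over all genes tested. With RLE size factors in place of TMM these were -0.90 and 0.00, so about 0.10 of it moves with the scaling. In 26 of the 34 genes both LPS libraries lay below both untreated libraries (41.7% of all genes tested did). The summed level was 99.7 and 127 CPM with LPS and 156 and 222 CPM untreated. Without replicate 1 of the LPS libraries the count of calls was 15, all of them lower. Stromal fibroblast markers summed to 222 and 198 CPM with LPS and 227 and 228 CPM untreated, and 0 of the 10 tested were called lower by edgeR.

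Kif23, Cenpa and Bub1b fell furthest with LPS. Kif23 (chr9:61915905-61946774) had 0.974 and 0.978 CPM with LPS and 4.85 and 7.04 CPM untreated (log2 fold change -2.60 ± 0.24, n = 2 each, adjusted p = 4.29e-04). Cenpa (chr5:30666777-30674830) had 3.76 and 3.07 CPM with LPS and 21.9 and 17.6 CPM untreated (-2.53 ± 0.17, adjusted p = 1.54e-04). Bub1b (chr2:118598211-118641591) had 1.39 and 1.61 CPM with LPS and 7.94 and 8.96 CPM untreated (-2.49 ± 0.16, adjusted p = 1.27e-04). In all 3 the groups lay far apart, with the widest spread between replicates in untreated Kif23. Aurkb followed with -2.15, Kif11 with -2.04, Racgap1 with -1.87, Cdk1 with -1.84, Kif18b with -1.83, Nek2 with -1.76, Cdca3 with -1.59 and Cdca8 with -1.46, all called. Smaller falls were called in Ttk (-1.35), Ccnb1 (-1.10), Ube2c (-1.07), Ccna2 (-0.93), Prc1 (-0.93), Kif20a (-0.88), Kif2c (-0.85), Aurka (-0.80), Plk1 (-0.78), Cdc20 (-0.70) and Birc5 (-0.63).

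Tpx2 (chr2:152847964-152895321) was the single gene that rose with LPS. It had 13 and 10.7 CPM with LPS and 8.16 and 8.68 CPM untreated, with no overlap (log2 fold change 0.50 ± 0.14, adjusted p = 0.0253). The call was lost when only those 2 groups were fitted. It was also lost in 3 of the 6 fits that left out 1 library each, namely without replicate 1 of the LPS libraries (adjusted p = 0.131, the highest of them) and without either IL-4 library, which shares the fit. Ccnb2, Kif4, Nusap1, Bub1, Hmmr, Ect2, Top2a, Ccnf, Cenpe, Cenpf and Mki67 did not pass. For Ccnb2 (-0.34 ± 0.24), Kif4 (-0.24 ± 0.32) and Nusap1 (-0.13 ± 0.40) the estimate was small. For Cenpf (-2.02 ± 1.49) and Cenpe (-2.05 ± 0.89) it was large and the untreated libraries differed widely. The genes that fell furthest without glutamine were not those that fell furthest with LPS: over the 34 genes the fold changes of the 2 comparisons, which share no library, had a Spearman rho of -0.33 and a Pearson r of -0.15, as a description. Kif4, for example, had -3.19 without glutamine and -0.24 with LPS, and Bub1b had -0.59 without glutamine and -2.49 with LPS.

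After IL-4 for 6 h, 4 of the 34 genes fell and 0 rose against untreated cells by edgeR. Over all genes tested 10.5% were called lower and 9.64% higher, so the share of mitotic genes called lower was near the background. The median was -0.46 over the 34 genes and -0.04 over all genes tested. An unadjusted p under 0.05 was found for 13 of the 34, near the share of all genes tested (4104 of 12506). The 4 were Plk1 (-1.01 ± 0.19, adjusted p = 0.017), Bub1b (-0.95 ± 0.14, 0.00742), Racgap1 (-0.93 ± 0.17, 0.0148) and Cdca3 (-0.73 ± 0.15, 0.0217). Plk1 had 1.14 and 1.12 CPM with IL-4 and 2.18 and 2.37 CPM untreated, and Racgap1 had 3.79 and 3.32 CPM with IL-4 and 6.33 and 7.18 CPM untreated. The groups did not overlap in either. With either IL-4 library left out the count was 0. Cdk1 had 16.2 and 16.4 CPM with IL-4 and 12.1 and 12.9 CPM untreated (0.38 ± 0.12, adjusted p = 0.0735). In 17 of the 34 genes both IL-4 libraries lay below both untreated libraries (31.8% of all genes tested did).

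**Figure D4:**
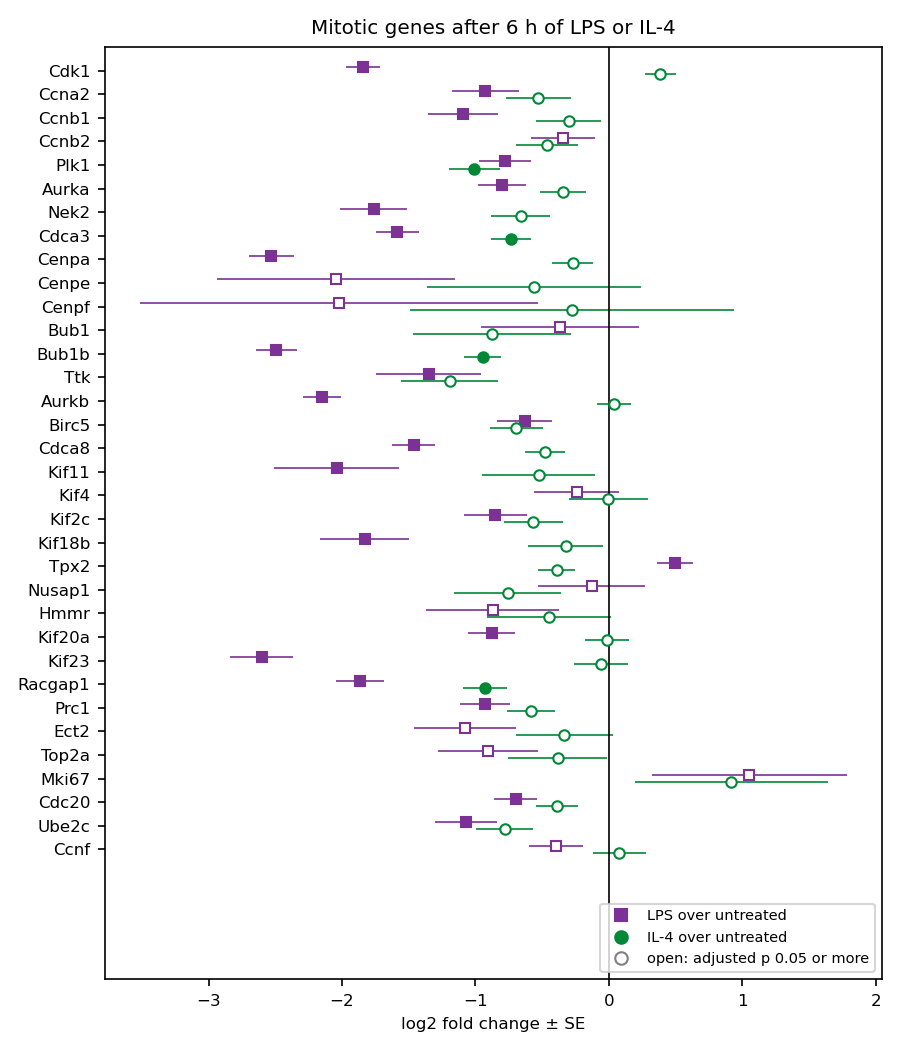
Log2 fold change ± SE of each gene for LPS over untreated (purple squares) and IL-4 over untreated (green circles), 2 libraries per group, with filled marks for an adjusted p under 0.05. Kif23, Cenpa and Bub1b lie furthest to the left with LPS at -2.60, -2.53 and -2.49, and Tpx2 is the filled square to the right of 0.

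Tested directly, IL-4 and LPS differed for 6645 of all 12506 genes tested and, a smaller share, for 14 of the 34. Of these, 13 were higher with IL-4 (29.7% of all genes tested) and Tpx2 was lower (-0.89 ± 0.14, adjusted p = 0.0029; 23.4% of all genes tested were called lower). Cdk1 had 16.2 and 16.4 CPM with IL-4 and 3.24 and 3.74 CPM with LPS (2.23 ± 0.13, adjusted p = 7.59e-05). Aurkb had 5.92 and 6.19 CPM with IL-4 and 1.25 and 1.40 CPM with LPS (2.19 ± 0.14, adjusted p = 1.17e-04). Kif23 gave 2.54 and Cenpa 2.26. Without replicate 2 of the IL-4 libraries the count of calls was 8.

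Long transcripts as a class differed more between replicates than the others, though not each of them and not they alone. Transcript lengths, from GENCODE vM21 on GRCm38, ran from 1466 nt (Cenpa) to 11130 nt (Cenpf). The 6 genes over 4500 nt were Cenpf, Mki67, Cenpe, Top2a, Kif4 and Kif11. Their median log2 ratio of replicate 2 to replicate 1 was 0.72 with LPS, -0.85 with IL-4 and 1.66 untreated. For the other 28 genes these medians were 0.01, -0.03 and 0.12. Some of the 28 differed more, such as Bub1 (3421 nt) with 1.27, -0.53 and 1.31 and Hmmr (3892 nt) with 0.54, -0.79 and 1.07. Among the long genes, Kif4 (4983 nt) gave 0.19, -0.11 and 0.75. Cenpf had 0.0960 and 2.88 CPM in the untreated libraries, and Mki67 had 6.91 and 30.3 CPM. In the tolerant set the median log2 ratio of replicate 4 to replicate 3 over the 6 long genes was -0.35 with AKG, 0.90 without glutamine and 0.61 with glutamine. Over all genes, transcripts above 8000 nt set against those under 2000 nt stood at -0.26 and 0.10 in the LPS libraries, 0.21 and -0.05 in the IL-4 libraries and -0.25 and 0.34 in the untreated libraries, on the log2 scale relative to the set's mean. In the tolerant set, replicates 3 and 4 without glutamine stood at -0.28 and 0.18. They stood at 0.21 and 0.005 with AKG and at -0.01 and 0.19 with glutamine. Deviations also followed GC content. The Spearman rho was 0.38 and -0.29 untreated, 0.34 and -0.35 in replicates 3 and 4 without glutamine, and smaller with LPS (0.03 and -0.19). Results for the 6 long genes, and for shorter ones such as Bub1 and Hmmr, rest in both sets on libraries that differ in this way. The part of these differences in the results was not tested beyond a fit that removes a length and GC trend.

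**Figure D5:**
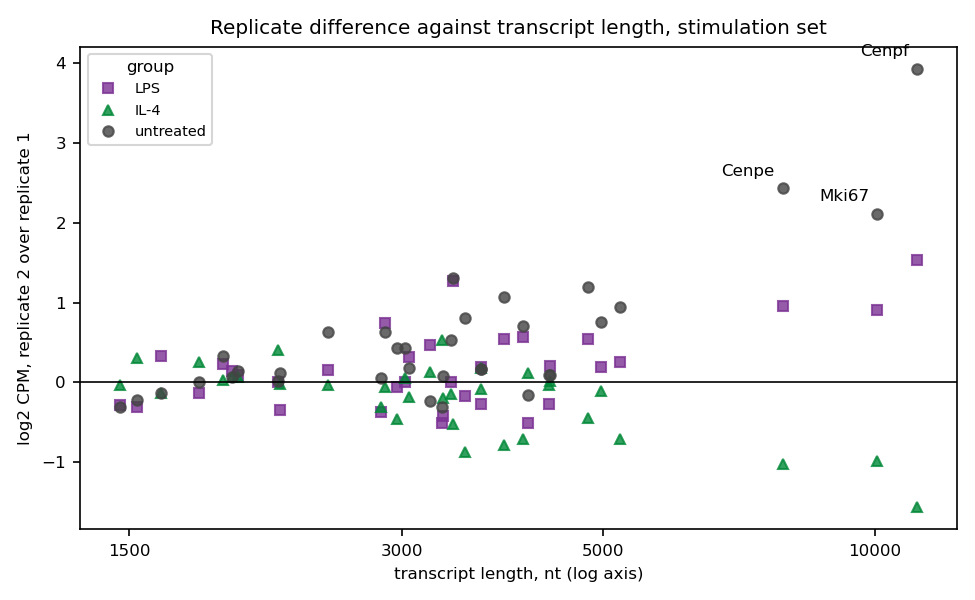
Log2 ratio of CPM in replicate 2 to replicate 1 against transcript length (log axis) for the 34 genes in the LPS, IL-4 and untreated groups. Cenpf, Cenpe and Mki67 lie furthest from 0 in the IL-4 group, below it, and in the untreated group, above it. With LPS, Cenpf (1.54) and Bub1 (1.27) lie furthest.

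Other genes of the cell cycle gave a context for these changes. A list of 67 further mitotic genes, of which 63 were tested, had 28 lower and 0 higher without glutamine (median -0.87). Anln, a scaffold of the contractile ring, fell by 2.76 and Nuf2, an outer kinetochore protein, by 1.90. Of 46 DNA replication genes, 8 were lower and 1 higher (median -0.34). With the replicate block 19 were lower, where 13.1% of all genes tested were. Mcm10, an origin firing factor, fell by 1.29. Among 17 cell cycle transcription factors, 3 fell. Foxm1, the transcription factor of many G2 and mitotic genes, averaged 1.29 CPM without glutamine and 6.54 CPM with glutamine (-2.34 ± 0.37, adjusted p = 0.00782). E2f7, a repressive E2F, fell by 3.63 and Rbl2, the p130 protein of the DREAM complex, by 0.27. Mybl2, the MYB partner of MuvB, averaged 0.635 CPM without glutamine and 1.49 CPM with glutamine and did not pass (-1.23 ± 0.37, adjusted p = 0.0931). E2f1 averaged 33.2 CPM without glutamine and 32.7 CPM with glutamine (0.02 ± 0.10, adjusted p = 0.951). Of 15 G1 cyclins, kinases and inhibitors, Ccne1 was called (-0.80) and, with the block, 5 were lower (13.1% of all genes tested). Cdkn1a, the p21 inhibitor, gave 0.03 (adjusted p = 0.965). Of 15 p53 target genes, Gadd45a was called, with a rise of 1.25, and with the block 5 were higher and 1 lower, where 8.73% of all genes tested were called higher. Of 16 tubulins and other spindle or cortex proteins that cells use throughout the cycle, Tuba1a (-1.09) and Tuba1b (-0.44) fell. With the block 4 of the 16 were lower (13.1% of all genes tested). Replication-dependent histones, 14 of 62 tested, had 3 higher and 0 lower (median 0.45), and 7 higher with the block.

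With LPS the same lists gave another pattern. Of the 64 further mitotic genes tested, 35 fell and 4 rose (median -1.14), and Cdc25b, a phosphatase that activates Cdk1, averaged 4.11 CPM with LPS and 38.0 CPM untreated (-3.21 ± 0.14, adjusted p = 5.18e-05). DNA replication genes had 29 of 46 lower and 1 higher (median -0.73), among them Mcm7 (-2.13) and Lig1 (-1.95). Foxm1 did not pass (-0.76 ± 0.26, adjusted p = 0.0516). E2f2 averaged 0.611 CPM with LPS and 30.3 CPM untreated (-5.62 ± 0.32, adjusted p = 1.04e-04), the largest fall of any cell cycle gene named here. Ccnd1 fell by 1.62 and Ccnd2 rose by 3.08, and Cdkn1a averaged 1395 CPM with LPS and 323 CPM untreated (2.11 ± 0.15, adjusted p = 1.80e-04). Histones fell in 4 of the 13 tested, near the share of all genes called lower with LPS (29.4%). With IL-4, DNA replication genes had 6 lower and 2 higher of 46 (median -0.22), where 10.5% of all genes tested were called lower and 9.64% higher, so the lower calls lay near that background. E2f2 fell by 1.71 with IL-4.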

How the data were processed

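RNA of 18 libraries was sequenced from stranded TruSeq libraries, per the labels' protocols. The authors deposited raw counts per gene symbol, made with STAR and HTSeq on mm10 per the submitters' processing notes. Neither tool versions nor the strand setting is given in the sources used here. By GENCODE vM21 (GRCm38), 16 of the 34 genes overlap another gene on the opposite strand and 5 on the same strand, so their counts are less certain.

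For each table, edgeR 4.0.16 under R 4.3.3 fitted every group together after filterByExpr and TMM, with the quasi-likelihood F test. Benjamini-Hochberg adjustment ran over all 12492 (tolerant) or 12506 (stimulation) genes tested, and genes with adjusted p under 0.05 were called. Fits had 9, 3 and, with replicate pairs as groups, 6 residual degrees of freedom. The scripts recovered known changes in simulated data, which, unlike the tolerant set, held no difference between replicate pairs. CPM used TMM library sizes. Counting error alone bounds the precision of low levels. No replicate pair agreed within sampling noise (chi-square per degree of freedom 8.06 to 182 in 21 pairs).

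Same-numbered tolerant libraries deviated together (r 0.50 to 0.82 in 12 pairs), which comes from the data and not the labels, and so did other numbers within replicates 1 and 2 or 3 and 4 (0.47 to 0.84). Values with that block stand beside the results whose call or count it changes by over 1.5 times. In the stimulation set r ran from -0.66 to 0.50, and the numbers were not taken as pairs.

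Alternatives were RLE factors, other filters, DESeq2 1.42.0, limma-voom 3.58.1, fewer groups or libraries, and the block. Added after seeing the data were an offset for GC and length trends and crossed IL-4 numbers. The genes and lists were chosen with earlier results of these data known. Named from each other list were the 2 genes with the smallest p without glutamine and with LPS, plus Foxm1, Mybl2, E2f1, Cdkn1a and Ccnd1. Figures were drawn with Python 3.11.15 and matplotlib 3.10.9.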

Additional observations from a re-analysis of the deposited data

Results flagged for a closer look

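The difference between groups in how far genes fell without glutamine passed its test in replicates 3 and 4 against replicates 1 and 2 for 6 genes: Ccnb1 (-2.04, adjusted p = 0.00441), Top2a (-1.76, 0.0201), Prc1 (-1.15, 0.027), Racgap1 (-0.95, 0.0225), Aurkb (-0.87, 0.0254) and Tpx2 (-0.84, 0.0233), all with the larger fall in replicates 3 and 4.

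A single library stood far from the other 3 of its group in 7 of the 102 groups of 4 examined on log2 CPM. With AKG these were Bub1 in replicate 4 (1.5 CPM) and Kif11 in replicate 2 (2.54 CPM). Without glutamine they were Kif11 in replicate 3 (1.21 CPM) and Hmmr in replicate 4 (1.5 CPM). With glutamine they were Cenpe (20.0 CPM), Bub1 (6.11 CPM) and Mki67 (58.3 CPM), all in replicate 4. Among the libraries of that group, replicate 4 also had the highest level of transcripts above 8000 nt relative to those under 2000 nt (0.19 on the log2 scale). The rule's nominal rate of 1 in 20 assumes 4 alike libraries and independent genes. It cannot be set beside the 7, since replicates 3 and 4 stood apart and all genes share the same libraries.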

How the results depend on the processing

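Of 1798 values of single genes under the alternatives, 1586 kept direction and call, 212 kept direction but lost the call, and 0 reversed. Leaving out single libraries gave 15 to 27 genes called without against with glutamine, 0 to 0 for AKG against neither and for AKG against glutamine, 16 to 22 between replicate pairs, 1 to 16 for the difference of the glutamine effect, 0 to 2 for that of AKG, 15 to 24 for LPS, 0 to 6 for IL-4 and 8 to 15 for IL-4 against LPS. With only the 2 groups fitted, 15 fell without glutamine. For AKG against the libraries without either, calls were 1 with DESeq2, 1 with the replicate block and 2 with the replicate pair as a factor. Over all genes these settings called 682, 1945 and 2347. In replicates 1 and 2 fitted alone 6 of the 34 were called (5 higher, 1 lower), and 2906 over all genes. When the length and GC offset joined the block and the pair factor, 2 and 3 were called, and 2677 and 3132 over all genes. For AKG against glutamine the calls among the 34 were 23 with DESeq2, 27 with the replicate block and 29 with the pair factor (232, 884 and 1155 over all genes). They were 26 and 28 in replicates 1 and 2 or 3 and 4 fitted alone (1432 and 782 over all genes). When the offset joined the block and the pair factor they were 29 and 31 (1228 and 1621 over all genes). The offset alone gave 17 for the difference of the glutamine effect (838 over all genes). For IL-4 it gave 9 of the 34, a smaller share than the 3776 of all 12506 genes. Crossing the IL-4 numbers gave 12 for IL-4, 29 for LPS and 19 for IL-4 against LPS. Of all 12506 genes it called 3988, 7992 and 8058. The 12 for IL-4 lay near that share and the 19 for IL-4 against LPS below it. The block changed no other count over the 34 genes by over 1.5 times. Among the other lists it moved the counts given beside those lists and, for IL-4, gave 3 DNA replication genes lower in place of 6. The cause of these shifts was not tested. Levels near 0.2 CPM rest on few counts, and the stimulation set has 2 libraries a group.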
